A study of Mus musculus with 6 samples.

Results

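The genes described here encode the proteins of the cytosolic ribosome. They were taken from a gene table of prefrontal cortex by their symbols: names of the Rpl and Rps series followed by a number, the P-stalk genes Rplp0, Rplp1 and Rplp2, and Rpsa and Fau, whose symbols do not follow the series. Of 101 rows with such names, 13 were left out. These were 10 Rps6k kinase genes, 2 rows with pseudogene names (Rpl31-ps12 and Rpl34-ps1) and Rpl10l, a paralog with 0 counts in every library, which allows up to 3 counts per library. The remaining 88 genes, of 21878 in the table, held 32 genes of the small subunit, 43 of the large subunit and 3 of the P stalk, which together are called the 78 core genes, and 9 paralogs of core genes. The last was Rps19bp1, which matches the name pattern but encodes a protein that binds Rps19 and is no subunit.

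A ribosome is built from a small subunit, which reads the mRNA, and a large subunit, which joins amino acids and holds the exit tunnel for the new chain. Each core protein is present about once per ribosome, apart from the acidic proteins of the P stalk, so cells make these proteins in matched amounts. Many of their mRNAs begin with a 5′ terminal oligopyrimidine tract (5′ TOP), a C followed by further C and T bases, through which the mTORC1 kinase and the protein Larp1 control their translation. In the brain, ribosomal protein mRNAs are found in neuronal and glial cell bodies and also in axons, dendrites and the fine processes of glia.

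Bulk RNA sequencing was done on prefrontal cortex of 6 mice, with all cells of the tissue included. The 3 control mice carried CamKIIα-Cre with intact alleles of the target gene (CamKIIαCre;Gls1+/+, labelled WT), and the 3 Gls1_CamkIIaCre mice were littermates with a single floxed allele (CamKIIαCre;Gls1+/flox). Both groups carry the Cre, which the CamKIIα promoter drives in excitatory forebrain neurons, so that the floxed allele is lost in a mosaic of these cells, while the other allele stays intact. Homozygous animals did not live, per the series description, with age and sex not given in the sources used here. This comparison asks how cortical gene expression differs between these genotypes. In such tissue, fewer cells of a type and less RNA per cell cannot be told apart.

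Libraries held between 17987807 and 19330961 counts. Values per library are CPM, counts scaled to library size after correction for library composition (TMM), and a gene was called changed at an adjusted p under 0.05 by edgeR's quasi-likelihood test over 14440 genes. Of 8 neuron markers fixed for the check of the tissue label, including the cortical genes Slc17a7 and Tbr1, each was detected in every library, and their summed level lay between 7981 and 8501 CPM in controls and between 8098 and 8622 CPM in Gls1_CamkIIaCre. Of the 8, Gad2, of inhibitory neurons, was called lower (-0.31 ± 0.047, edgeR adjusted p = 0.000631), and 2 others were higher at an unadjusted p under 0.05. Markers of the neighbouring striatum were also present and differed between the groups. Their sums were 584, 994 and 671 CPM in control 1 to 3 and 223, 236 and 255 CPM in Gls1_CamkIIaCre 1 to 3. Of the 10, 8 were called lower, against 4.29% of all genes tested, and none was at 0.

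The genes lie on 20 chromosomes, 4 of them on X, and share features that the choice by name did not use. Small nucleolar RNA genes, which guide the modification of ribosomal RNA and are often cut from the introns of ribosomal protein genes, lie inside 30 of the 88 (34.1%), with 59 such RNAs in all. Over all protein-coding genes of the table, 369 of 21406 (1.72%) hold one. The tract at the start is the other shared feature. RefSeq promoter sequences of GRCm38.p6 were matched for 68 of the 88 genes by gene identifier. A run of at least 5 bases, each C or T, that opens with a C exactly at the annotated start, on the strand of the gene, was present in 16 of these 68 (23.5%), in 445 of 17199 other genes of the table (2.59%) and in 813 of all 27025 promoters (3.01%). With a run of at least 8 bases anywhere within 30 bases on either side of the start, the shares were 52.9% and 20.9% of the other genes. Annotated starts need not be the starts used in cortex, so a gene without a match has only no such letters in this window.

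Start sites of 7 genes are shown to make the tract visible: Fau and Rps21, the called genes that carry it, Rps6, whose protein is the best known target of the S6 kinases, the stalk gene Rplp2, Rpl14 from the end of the range without a difference, and Rps27 beside its retrocopy Rps27rt. Each window holds 15 bases before the annotated start and 15 from it, 5′ to 3′ on the gene's strand, and capitals mark the pyrimidine tract. In GRCm38.p6 the windows are chr19:6057932-6057961 on the plus strand for Fau, chr2:180257364-180257393 on the plus strand for Rps21, chr4:86857353-86857382 on the minus strand for Rps6, chr7:141447636-141447665 on the plus strand for Rplp2, chr9:120571502-120571531 on the plus strand for Rpl14, chr3:90213634-90213663 on the minus strand for Rps27 and chr9:114982725-114982754 on the minus strand for Rps27rt.
Fau: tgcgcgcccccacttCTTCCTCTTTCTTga
Rps21: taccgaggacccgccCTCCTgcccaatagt
Rps6: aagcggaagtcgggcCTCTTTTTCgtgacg
Rplp2: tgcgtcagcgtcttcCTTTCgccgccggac
Rpl14: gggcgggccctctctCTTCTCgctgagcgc
Rps27: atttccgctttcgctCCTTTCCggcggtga
Rps27rt: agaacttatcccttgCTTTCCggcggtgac

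Ribosomal protein mRNAs were lower in the Gls1_CamkIIaCre libraries by a small amount that was alike across most genes. Of the 85 genes tested, 26 (30.6%) passed the test as lower, against 4.29% of all genes tested (8.24% in either direction). As higher, 0 passed by edgeR, DESeq2 or limma voom, and 0 at an unadjusted edgeR p under 0.05, against 3.95% and 11.1% of all genes. At an unadjusted p under 0.05, 56 were lower, against 11.3% of all genes. The fitted log2 fold change was below 0 for 82 of the 85, against 50.8% of all genes, and its median was -0.13 (8.44% lower), against a median of -0.0024 over all genes. All 3 Gls1_CamkIIaCre libraries lay below all 3 controls for 48 of the 85, against 13.6% of all genes. The 3 genes not tested, Rpl3l, Rpl32l and Rpl39l, stayed under the filter on low counts, at 0.629 CPM or less in every library.

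The called genes changed by little. Their log2 fold changes ran from -0.35 to -0.13, which is 21.4% to 8.48% lower. The 59 genes that did not pass had log2 fold changes from -0.21 to 0.18, and 56 of them were below 0. The calls depended on single libraries. Without control 1 or without Gls1_CamkIIaCre 2, Rpl22l1 and Rpl23a were the 2 genes called, and 5 were called without control 2. Without control 3 there were 43, and without Gls1_CamkIIaCre 1 or 3 there were 16 and 15. Over all genes tested, the share called lower was 3.06%, 2.40% and 3.72% without control 1, 2 and 3. It was 2.71%, 1.49% and 3.00% without Gls1_CamkIIaCre 1, 2 and 3, against 4.29% with all libraries. The median log2 fold change of the ribosomal protein genes stayed between -0.16 and -0.094 with 1 library left out. After a correction for transcript length, described further on, 0 of them were called, against 2.80% of all genes called lower, and their median was -0.029.

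**Figure D1:**
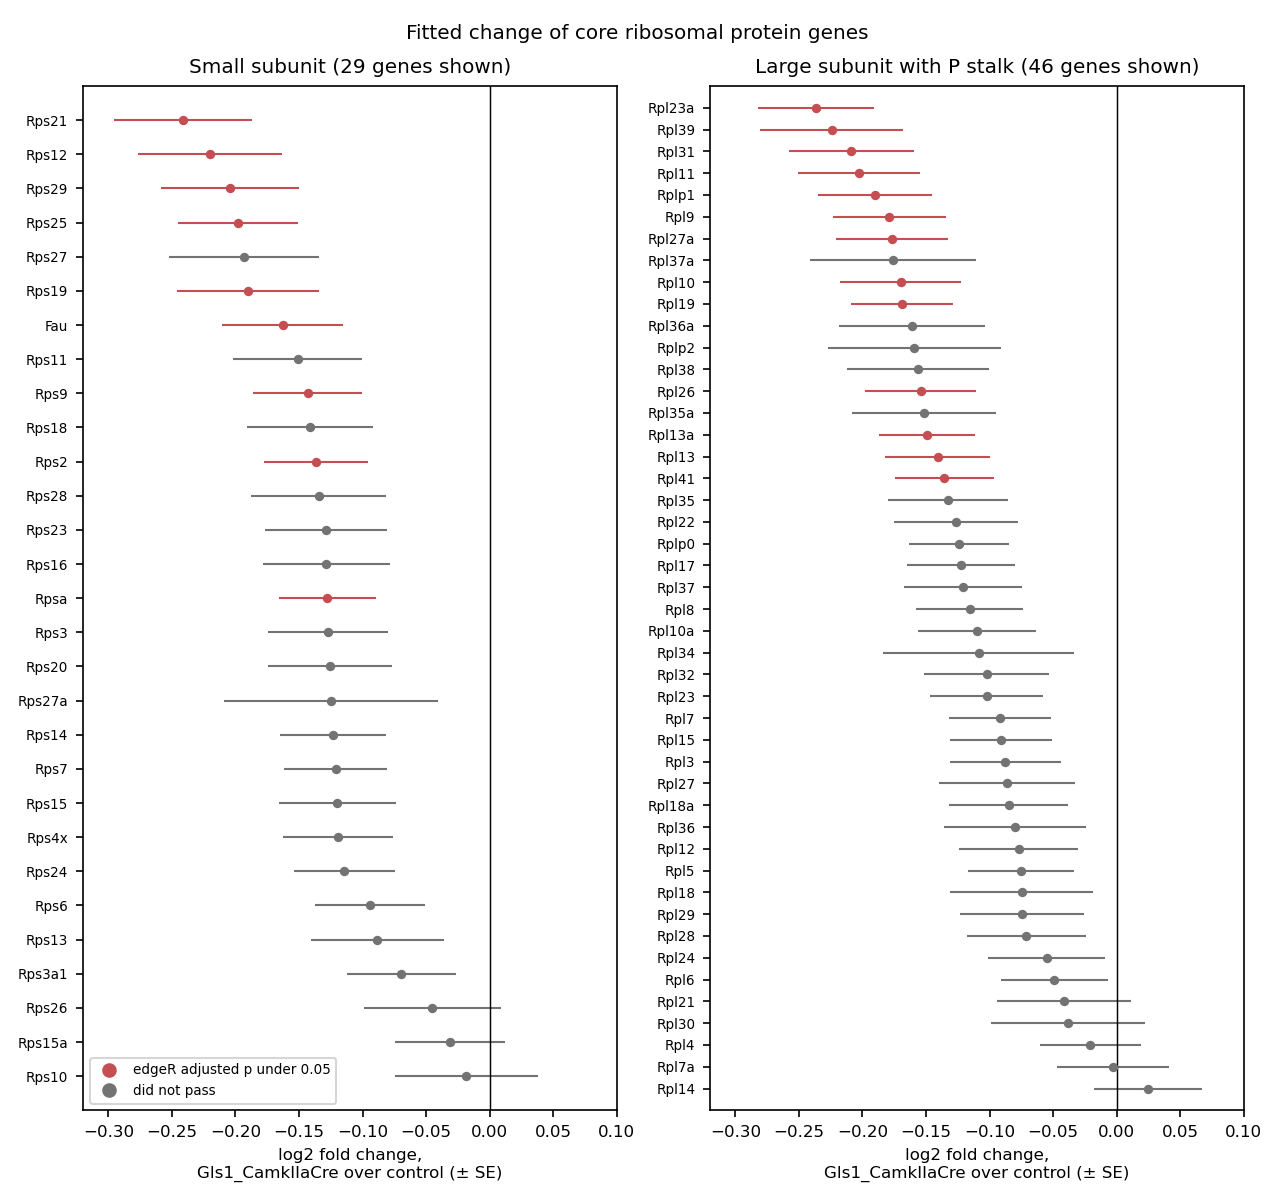
Fitted log2 fold change (horizontal axis, Gls1_CamkIIaCre over control, with bars of ± 1 standard error) of 29 of the 32 small-subunit genes and the 46 genes of the large subunit with the P stalk, one row per gene. Points lie left of 0 for 74 of the 75 genes shown, from -0.24 for Rps21 to 0.024 for Rpl14, and red points passed the edgeR test.

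Among small-subunit genes, 12 of 32 fell, with a median of -0.13 and all 32 log2 fold changes below 0. None of these calls was left without control 1 or without Gls1_CamkIIaCre 2. Rps21 was the furthest down. It stood at 98.9, 91.4 and 88.4 CPM in control 1 to 3 and at 81.3, 72.8 and 81.7 CPM in Gls1_CamkIIaCre 1 to 3, with no overlap between the groups (log2 fold change of -0.24 with an SE of 0.054, edgeR adjusted p = 0.00882). Rps25, which is needed for translation from certain viral internal entry sites, had 165, 156 and 144 CPM against 139, 134 and 134 CPM (-0.20 ± 0.047, 0.0129). In both genes control 3 was the lowest control and still above every Gls1_CamkIIaCre library.

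Rps29, which had the highest level per transcript length of all 88, was called although its groups overlapped. Its levels were 186, 187 and 162 CPM in controls and 163, 153 and 148 CPM in Gls1_CamkIIaCre (-0.20 ± 0.054, edgeR adjusted p = 0.0290), so that control 3 lay just below Gls1_CamkIIaCre 1. It was the only called gene of the 26 with such an overlap. Rps27 had a like difference and did not pass, with 122, 118 and 102 CPM against 103, 94.1 and 102 CPM (-0.19 ± 0.059, 0.0520). Rps23, a protein of the decoding centre, had 206, 195 and 177 CPM against 180, 177 and 172 CPM (-0.13 ± 0.048, 0.108). In both, control 3 lay among the Gls1_CamkIIaCre libraries.

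Of 4 small-subunit genes with a second known role, 2 passed, and the differences between their fold changes were not tested. Fau, whose product is a ubiquitin-like protein fused to a ribosomal protein, fell from 102 ± 5.70 to 91.2 ± 1.63 CPM (SD, n = 3 each, with a log2 fold change of -0.16 ± 0.048 (SE) and an edgeR adjusted p = 0.0394). Rpsa, also known as a laminin receptor at the cell surface, fell from 312 ± 7.99 to 286 ± 4.79 CPM (-0.13 ± 0.038, 0.0419). Rps27a, which encodes ubiquitin fused to a ribosomal protein, was the most variable of this set, at 113, 135 and 117 CPM in controls and 100.1, 120 and 115 CPM in Gls1_CamkIIaCre (-0.13 ± 0.084, 0.445). Rps6, the phosphorylation target downstream of mTORC1, did not pass either. Its levels were 189, 187 and 172 CPM against 168, 172 and 173 CPM (-0.094 ± 0.043, 0.201), and control 3 lay inside the range of the Gls1_CamkIIaCre libraries. DESeq2 gave no call for Fau, and a GC correction none for Fau and Rpsa.

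Among large-subunit genes, 12 of 43 fell, with a median of -0.11 and 42 log2 fold changes below 0. Rpl23a, which sits at the mouth of the exit tunnel, had the smallest p of all 88 genes. It stood at 182, 175 and 167 CPM in controls and at 156, 142 and 146 CPM in Gls1_CamkIIaCre, without overlap (-0.24 ± 0.046, edgeR adjusted p = 0.00308), and it was the core gene whose call was kept in every fit that left out 1 library. The gene lies at chr11:78180935-78183584 (GRCm38.p6), holds 3 small nucleolar RNA genes and overlaps the coding gene Tlcd1, with the use of strand in counting not given in the sources used here. Rpl19, a protein at the bridge between the subunits, had 252, 240 and 236 CPM against 220, 216 and 211 CPM (-0.17 ± 0.040, 0.0122). Rpl39, one of the smallest ribosomal proteins and a lining of the exit tunnel, had 60.6, 57.8 and 54.6 CPM against 51.6, 47.6 and 49.0 CPM (-0.22 ± 0.056, 0.0169). The groups did not overlap in these genes. Rpl19 and Rpl39 lost their calls without control 1 or without Gls1_CamkIIaCre 2, and Rpl39 also without control 2.

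Rpl11 and Rpl5 form a complex with the 5S ribosomal RNA that can bind Mdm2 and so raise p53. Rpl11 had 167, 164 and 147 CPM in controls and 143, 135 and 137 CPM in Gls1_CamkIIaCre (-0.20 ± 0.048, edgeR adjusted p = 0.0122). Rpl5 had 232, 217 and 210 CPM against 211, 208 and 207 CPM (-0.075 ± 0.042, 0.307), and its groups overlapped. The difference between their fold changes was not tested. Rpl31, Rpl27a and Rpl9 fell by a like amount, with log2 fold changes of -0.21, -0.18 and -0.18 and edgeR adjusted p-values of 0.0126, 0.0164 and 0.0164. Rpl41, which encodes the shortest of the ribosomal proteins, went from 208 ± 4.72 to 189 ± 2.54 CPM (SD, n = 3 each, log2 change -0.14 ± 0.039 (SE), 0.0350). Limma on the FPKM values gave no call for Rpl11, and a GC correction none for Rpl41.

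Beyond the 12 called genes of smallest p there were 14 more, among them Rps2, Rps9, Rps12 and Rps19 of the small subunit, Rpl10, Rpl13, Rpl13a and Rpl26 of the large subunit, and Rps29, Rpl41, Fau and Rpsa. The log2 fold changes of these 14 lay between -0.22 and -0.13 with edgeR adjusted p-values from 0.0183 to 0.0432. Rps12 had 81.2, 75.7 and 70.8 CPM in controls and 68.9, 64.7 and 61.9 CPM in Gls1_CamkIIaCre. Rps19, the gene most often mutated in Diamond-Blackfan anaemia, had 89.7, 87.0 and 81.3 CPM against 80.7, 76.0 and 69.4 CPM. Rpl10, which acts in the last step of large-subunit maturation, had 148, 148 and 134 CPM against 130, 121 and 131 CPM. DESeq2 gave no call for Rps2, Rps9, Rps19, Rpl10 and Rpl13. In Rps12, Rps19 and Rpl10 control 3 was the control nearest to the Gls1_CamkIIaCre libraries.

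Core genes that lay within 0.05 of 0 on the log2 scale, picked out after their values were seen, were the 9 genes Rpl4, Rpl6, Rpl7a, Rpl14, Rpl21, Rpl30, Rps10, Rps15a and Rps26. Rpl4, the most abundant of the core genes in counts, had 439, 447 and 415 CPM in controls and 422, 420 and 441 CPM in Gls1_CamkIIaCre (log2 fold change of -0.021 with an SE of 0.040, edgeR adjusted p = 0.813). Rpl7a had 117, 112 and 119 CPM against 113, 114 and 120 CPM (-0.0026 ± 0.044, 0.982). Rpl14, the one core gene with a fold change above 0, had 120, 115 and 113 CPM against 117, 119 and 118 CPM (0.024 ± 0.042, 0.795). The groups overlapped in all 3.

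The P stalk recruits the elongation factors to the large subunit. Its 3 genes had a median of -0.16, and 1 passed. Rplp1 had 324, 323 and 293 CPM in controls and 287, 269 and 267 CPM in Gls1_CamkIIaCre, without overlap (-0.19 ± 0.045, edgeR adjusted p = 0.0116), and lost its call without control 1, control 2 or Gls1_CamkIIaCre 2. Rplp0, which anchors the stalk, had the tightest controls, at 162, 163 and 161 CPM, against 150.4, 150.1 and 146 CPM (-0.12 ± 0.040, 0.0572), and its groups did not overlap. Rplp2, the partner of Rplp1 in the stalk dimers, had 101, 79.9 and 89.8 CPM against 80.6, 81.2 and 80.8 CPM (-0.16 ± 0.068, 0.180). Its controls were spread over the whole range, with control 2 the lowest of all 6 libraries.

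**Figure D2:**
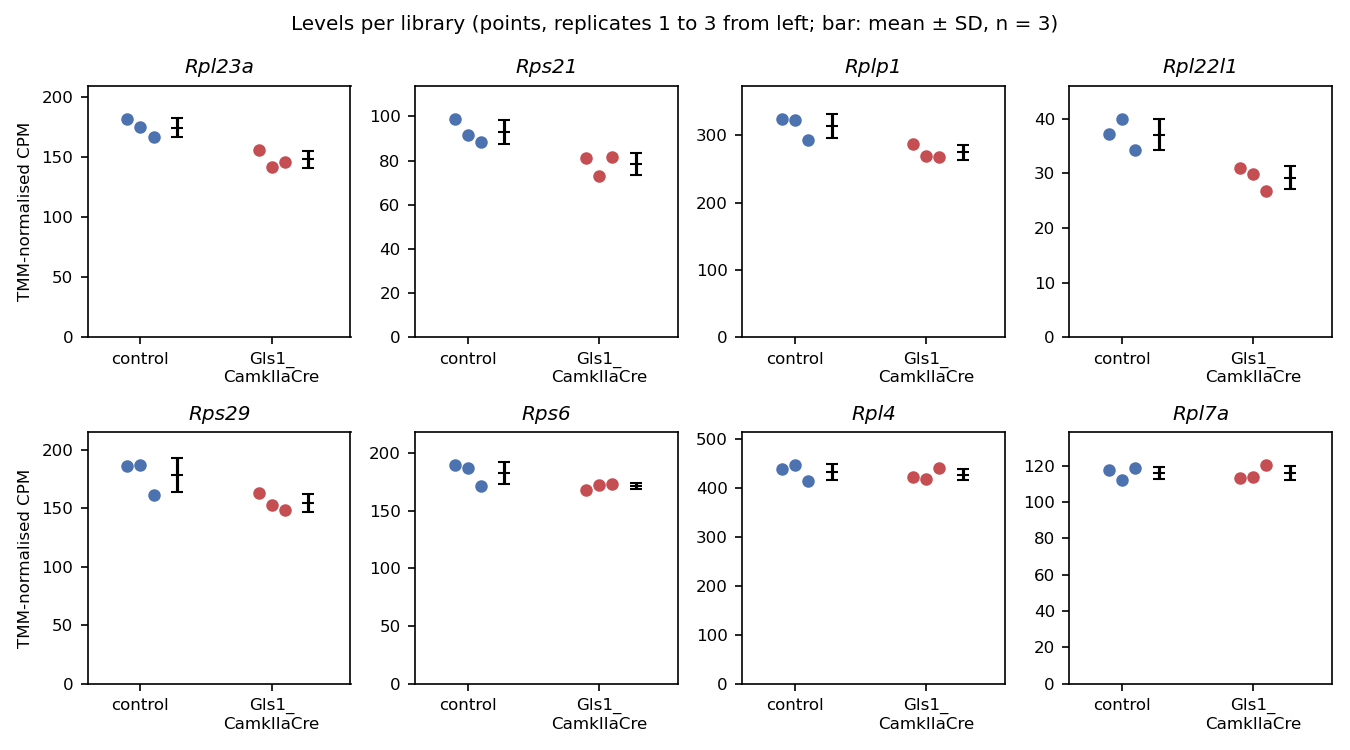
TMM-normalised CPM of 8 ribosomal protein genes in each library (vertical axes start at 0), with points for replicates 1 to 3 of control (blue) and Gls1_CamkIIaCre (red) and bars for the mean ± SD of 3 libraries. Rpl23a, Rps21, Rplp1 and Rpl22l1 do not overlap between the groups, while Rps29, Rps6, Rpl4 and Rpl7a do.

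Paralogs of ribosomal protein genes are mostly expressed at a fraction of the core gene and can replace its protein in some tissues. Of the 6 tested, 1 fell. Rpl22l1 is the paralog of Rpl22 and had the largest fold change among the called genes, with 37.1, 40.0 and 34.2 CPM in controls and 30.9, 29.8 and 26.8 CPM in Gls1_CamkIIaCre (-0.35 ± 0.072, edgeR adjusted p = 0.00527). Its groups did not overlap, and its call was kept in every fit that left out 1 library. Rpl22 itself had 102, 94.4 and 95.5 CPM against 92.5, 84.9 and 90.0 CPM (-0.13 ± 0.049, 0.116). Counts of Rpl22l1 were 36.4%, 42.3% and 35.8% of those of Rpl22 in controls and 33.4%, 35.1% and 29.7% in Gls1_CamkIIaCre. The means were 38.2% ± 3.63 and 32.8% ± 2.75 (SD, n = 3 per group, two-sided exact permutation p = 0.1 and 0.25 after adjustment over 5 such ratios), and 0.1 is the smallest p that 3 against 3 allows.

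Rps27rt, the retrocopy of Rps27, was the one paralog with a fold change of 0.1 or more above 0. It is weakly expressed, at 4.8, 4.93 and 3.17 CPM in controls and 5.09, 4.62 and 4.90 CPM in Gls1_CamkIIaCre (0.18 ± 0.18, edgeR adjusted p = 0.617), and its groups overlapped. As a share of Rps27 counts it stood at 3.94%, 4.18% and 3.11% in controls and at 4.96%, 4.91% and 4.81% in Gls1_CamkIIaCre, without overlap. The means were 3.74% ± 0.562 and 4.89% ± 0.0778 (SD, n = 3 per group, exact permutation p = 0.1, adjusted 0.25). The copy lies inside the coding gene Osbpl10 at chr9:114982366-114982739 (GRCm38.p6), with the handling of reads shared with Rps27 or Osbpl10 not given in the sources used here.

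Ratios of the other 3 pairs did not separate the groups. Rpl36al stood at 57.8% ± 3.98 of Rpl36a in controls and 57.8% ± 3.75 in Gls1_CamkIIaCre (SD, n = 3 per group, exact permutation p = 1), and the retrocopy Rpl37rt at 13.7% and 13.6% of Rpl37 (exact permutation p = 0.9). Rps27l, a p53-inducible paralog, stood at 7.41% and 7.66% of Rps27 (exact permutation p = 0.8). Rpl7l1 had 37.3, 37.8 and 35.4 CPM in controls against 36.5, 38.2 and 37.9 CPM (log2 fold change of 0.026 with an SE of 0.060, edgeR adjusted p = 0.851). Rps19bp1 had 12.6 ± 0.585 against 10.9 ± 1.01 CPM (SD, n = 3 each, log2 change -0.21 ± 0.10 (SE), 0.233). Values of near-identical copies depend on how shared reads were counted.

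Rack1 encodes a ribosomal protein as well, a scaffold on the head of the small subunit, but carries another symbol and was not among the 88. It had 148, 134 and 129 CPM in controls and 124, 122 and 115 CPM in Gls1_CamkIIaCre (-0.18 ± 0.050, edgeR adjusted p = 0.0264). It fell without overlap between the groups. The call was lost without control 1, control 2, Gls1_CamkIIaCre 2 or Gls1_CamkIIaCre 3, by limma on the FPKM values and after the length correction.

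Summed over the genes, the controls spread widely and the Gls1_CamkIIaCre libraries little. The 88 genes took 1.26%, 1.21% and 1.13% of all counts in control 1 to 3 and 1.11%, 1.09% and 1.08% in Gls1_CamkIIaCre 1 to 3. The group means were 1.2% ± 0.0643 and 1.09% ± 0.0156 (SD, n = 3 per group), a relative difference of -9.09%. The ratio between the subunits hardly moved, though the groups did not overlap, which was not tested. Small-subunit genes made up 40.65%, 40.69% and 40.53% of core counts in control 1 to 3 and 40.40%, 40.28% and 40.39% in Gls1_CamkIIaCre 1 to 3. Summed over the 78 core genes, the level was 12289, 11849 and 11240 CPM in controls and 10926, 10755 and 10817 CPM in Gls1_CamkIIaCre. The controls thus spanned 1048 CPM, more than the 960 CPM between the group means, and the Gls1_CamkIIaCre libraries 171 CPM.

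Control 1 was the highest of all 6 libraries for 63 of the 78 core genes, and control 3 the lowest control for 64. Control 1 lay above every Gls1_CamkIIaCre library for 73 genes, control 2 for 68 and control 3 for 48. The median coefficient of variation of a core gene was 5.35% among controls and 2.61% among Gls1_CamkIIaCre libraries. The summed striatal markers given above were highest in control 2. All 10 of them lay lower in every Gls1_CamkIIaCre library than in any control, against 13.6% of all genes. Oligodendrocyte markers summed to 3119, 3697 and 3512 CPM in controls and 2918, 2832 and 3266 CPM in Gls1_CamkIIaCre, with 2 of 6 lower, and the 3 markers of the meninges summed to 62.4, 66.7 and 71.3 CPM against 49.2, 48.4 and 45.3 CPM, with all 3 lower. Astrocyte markers summed to 1904, 1909 and 1876 CPM against 1808, 1784 and 1778 CPM, with 2 of 5 lower. In 1 of these 5 the Gls1_CamkIIaCre libraries lay above all controls and in 3 below, against 13.1% and 13.6% of all genes. Markers of blood summed to 68.5, 81.5 and 70.2 CPM against 67.2, 52.5 and 57.1 CPM, with 2 of 4 lower. Endothelial markers summed to 146, 153 and 136 CPM against 142, 131 and 137 CPM, with 1 of 4 lower. Of all genes tested, 4.29% were called lower. Microglia markers summed to 361, 349 and 338 CPM against 329, 324 and 351 CPM. Of these 5, 2 were lower at an unadjusted edgeR p under 0.05, against 11.3% of all genes. No marker of these lists was at 0, and their part in the difference of the ribosomal protein genes was not tested.

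**Figure D3:**
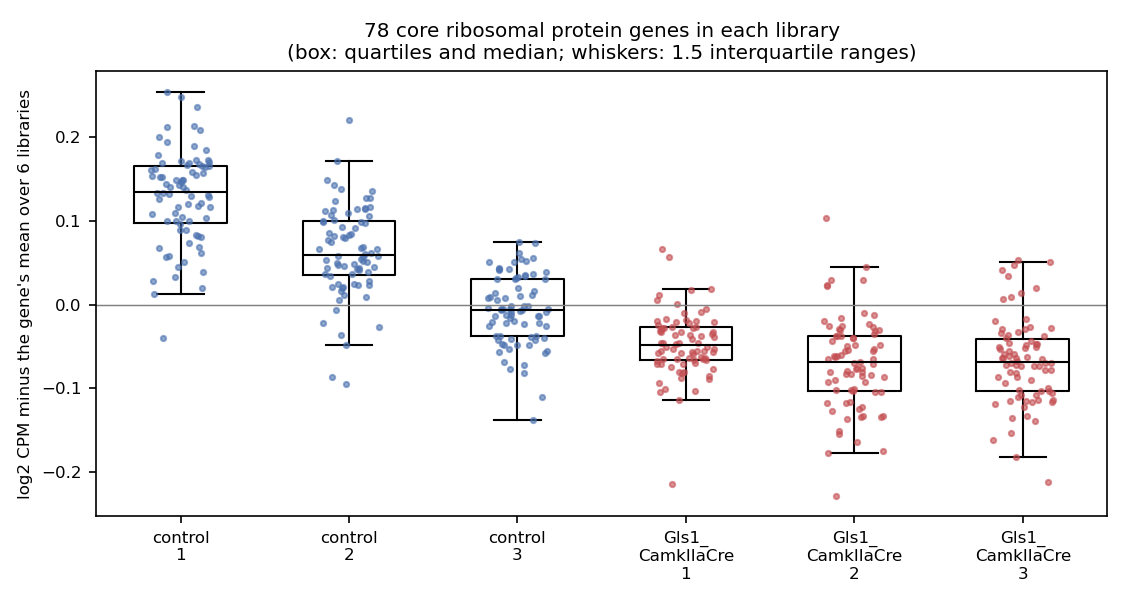
Level of the 78 core genes in each library as log2 CPM minus the gene's mean over the 6 libraries (vertical axis), one point per gene, with boxes for the median and quartiles. The library medians are 0.13, 0.059 and -0.0065 for control 1 to 3 and -0.049, -0.069 and -0.068 for Gls1_CamkIIaCre 1 to 3, so control 3 lies nearest to the Gls1_CamkIIaCre libraries.

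Ribosomal protein mRNAs are short, and fold changes in these data moved with transcript length in all genes. The median transcript length was 882 bases for core genes and 3106 bases for all genes tested. Among genes that do not encode ribosomal proteins, the median log2 fold change was -0.14 for the 55 with transcripts of 500 bases or less, -0.12 for the 626 over 500 and up to 1000 bases, -0.047 for the 2797 up to 2000 bases, -0.0041 for the 5949 up to 4000 bases, 0.029 for the 4056 up to 8000 bases and 0.077 for the 769 above that. Ribosomal protein genes of the same lengths had medians of -0.16 (13 genes), -0.14 (42 genes), -0.11 (24 genes) and -0.075 (5 genes). In the range from 500 to 1000 bases, which holds 42 of the 85 ribosomal protein genes tested, the 120 other genes at 50 CPM or more had a median of -0.14.

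The same held library by library. The 626 other genes of 500 to 1000 bases had medians of 0.091, 0.051 and 0.033 in control 1 to 3, relative to each gene's mean, and -0.052, -0.062 and -0.046 in Gls1_CamkIIaCre 1 to 3. The 42 ribosomal protein genes of that length had 0.14, 0.064 and 0.0066 in controls and -0.054, -0.078 and -0.071 in Gls1_CamkIIaCre. Control 1 was the highest library in both sets. Genes over 8000 bases ran the other way, from -0.061 in control 1 to 0.060 in Gls1_CamkIIaCre 1.

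Each library was then corrected for the smooth relation of counts to transcript length and GC content, fitted without the ribosomal protein genes. After this, 0 of the 85 were called by edgeR, as lower or as higher, and 8 were lower at an unadjusted p under 0.05. Of all 14337 genes tested in that fit, 408 (2.85%) were called lower and 472 higher. The median log2 fold change of the 85 was -0.027, against 0.012 over all genes, and 61 of the 85 were below 0. All 26 called genes were still below 0, with a median of -0.065 in place of their former range of -0.35 to -0.13. The smallest edgeR adjusted p was that of Rpl22l1, at 0.0821 (-0.21 ± 0.070). Rpl23a had -0.097 (0.170), Rps21 -0.067 (0.487) and Rplp1 -0.043 (0.621), while Rps6 stood at 0.0080. Length alone gave 0 calls among the 85, against 2.80% of all genes called lower, and a median of -0.029. GC content alone gave 17 calls, against 3.52% of all genes called lower, and a median of -0.11. This correction was chosen after the data had been seen. Genotype and the length relation move together in these 6 libraries and cannot be told apart.

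**Figure D4:**
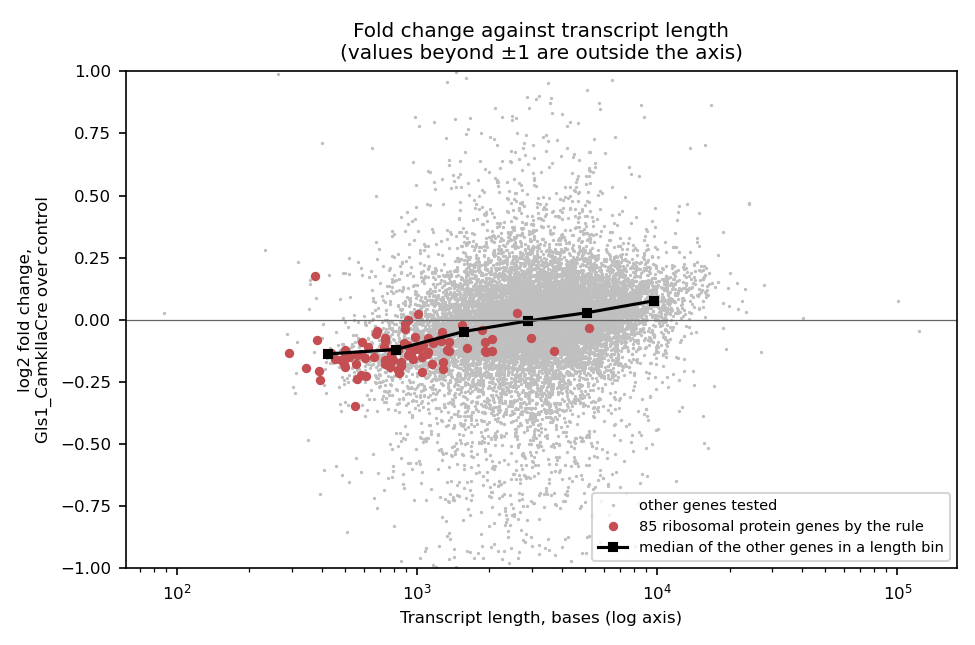
Log2 fold change (vertical axis) against transcript length (horizontal log axis, bases) for the genes tested that have a length, with 85 ribosomal protein genes in red and other genes in grey. Black squares are the medians of the other genes in 6 length ranges and rise from -0.14 in the shortest to 0.077 in the longest, and most red points lie around the left end of that line.

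**Figure D5:**
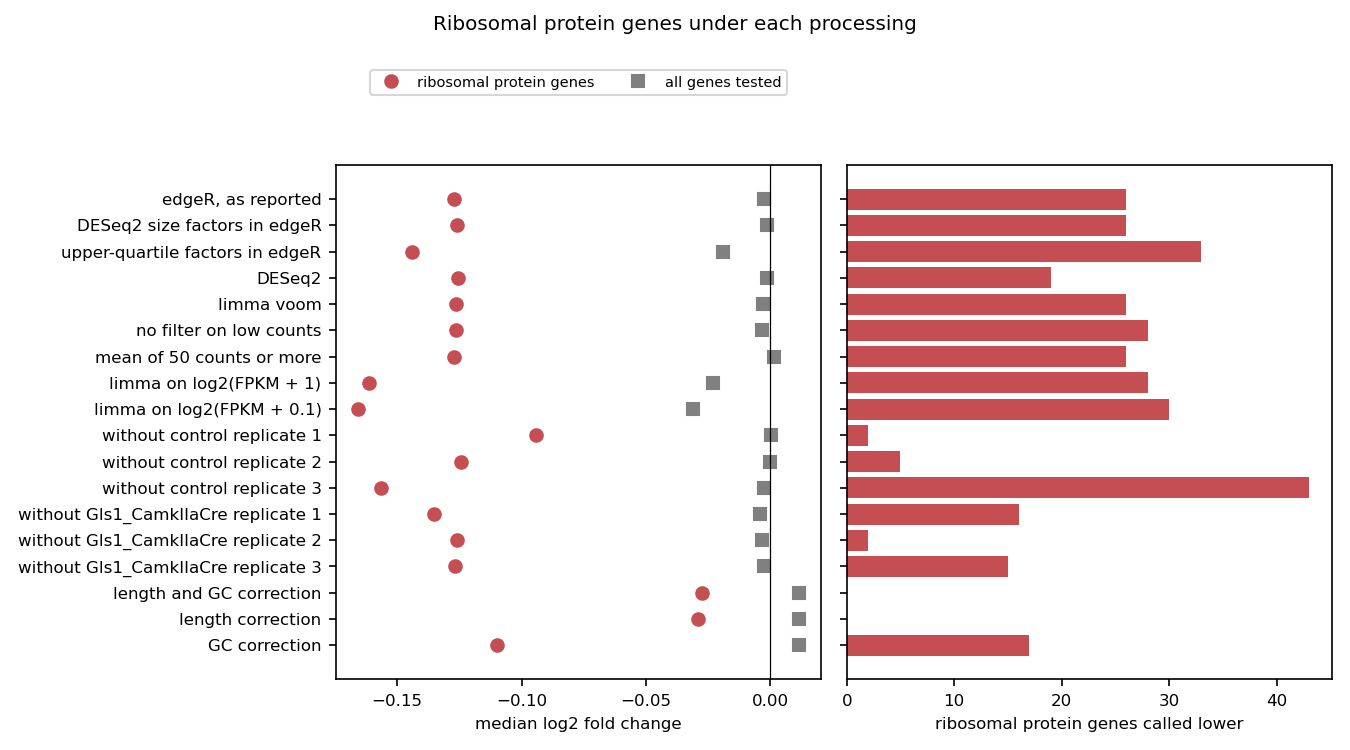
Median log2 fold change (left) of the ribosomal protein genes (circles) and of all genes tested (squares), and number of ribosomal protein genes called lower (right), under each way of processing. The median of the ribosomal protein genes is below that of all genes under every setting shown, and the number called runs from 0 after length correction to 43 without control 3.

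The called genes were also counted within each shared feature, with no test of the differences. Of all genes tested, 4.29% were called lower. The 30 tested genes that hold small nucleolar RNA genes had a median of -0.12 with 10 called, and the 55 without had -0.13 with 16 called. The 15 tested genes with the tract at the annotated start had a median of -0.13 with 2 called, and the 50 tested genes with a promoter entry but no tract a median of -0.13 with 18 called. By transcript length, 4 of 13 genes up to 500 bases were called, 16 of 42 up to 1000 bases and 6 of 30 above that. Of the 12 tested genes that overlap another coding gene, 4 were called, with a median of -0.13, and of the 73 that do not, 22 were called, with the same median to 2 decimals.

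Levels between genes were compared per length, in the authors' FPKM. Core genes ran from 18.6 FPKM for Rps20 to 781 FPKM for Rps29, with a median of 151 FPKM. After Rps29 came Rplp1 with 677, Rpl41 with 613, and Rps27 and Rps23 with 397 FPKM each, as means over the 6 libraries. Rps27 and Rps23 do not differ beyond their spread, since each moved by more than that between control libraries. This order rests on the gene lengths the authors used. The ratio of counts to FPKM puts that length at 214 bases for Rps29 but at 4429 bases for Rps20, 5920 for Rps24 and 6589 for Rps15a, against a median of 852 bases over the core genes, so a low FPKM need not mean few molecules. In CPM the core genes spanned 50.3 to 431 as means over all libraries.

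Other genes of translation are given by lists, beside the shares of all genes called lower (4.29%) and higher (3.95%). Of 13 translation elongation factors 1 fell, Eef1b2, from 111 ± 3.70 to 98.7 ± 1.52 CPM (SD, n = 3 each, log2 change -0.17 ± 0.044 (SE), edgeR adjusted p = 0.0207), and the median was -0.045. Of 40 initiation factors 5 rose, with a median of -0.0023 and 20 below 0. At an unadjusted p under 0.05, 5 were higher and 5 lower, and in 7 the Gls1_CamkIIaCre libraries lay above all controls and in 5 below, against 13.1% and 13.6% of all genes. Eif3c, a subunit of the eIF3 complex that loads the small subunit, rose from 168 ± 3.17 to 191 ± 4.24 CPM (0.19 ± 0.040, 0.00577), and Eif4g1, the scaffold of the cap-binding complex, from 262 ± 8.15 to 289 ± 6.0 CPM (0.14 ± 0.039, 0.0301). The others were Eif1ax (0.17), Eif3a (0.14) and Eif4g3 (0.13). Of these 5, Eif3c was the one called in every fit that left out 1 library and after the length and GC correction (0.20 ± 0.039, 0.00478), though not by limma on the FPKM values. Eif4g2 joined it in that correction, with 0.15 (0.0169).

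Other mRNAs known to carry a 5′ TOP went the way of the ribosomal protein genes in part. Of 19 tested, 5 fell, against 4.29% of all genes, with a median of -0.092. Besides Eef1b2 and Rack1 they included Tpt1, a growth-linked protein, from 372 ± 12.5 to 338 ± 9.14 CPM (-0.14 ± 0.039, edgeR adjusted p = 0.0346), and Vim, an intermediate filament of glial and vascular cells, from 43.2 ± 2.01 to 35.8 ± 3.16 CPM (-0.27 ± 0.067, 0.0141). Eef1b2, Tpt1 and Vim each lost the call without control 1 or 2 or without Gls1_CamkIIaCre 2 or 3. After the length and GC correction Vim was the one called (-0.24 ± 0.066, 0.0372).

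Of 55 genes that build ribosomes 1 rose (1 of 55 is below the 3.95% of all genes). At an unadjusted p under 0.05, 12 were higher and 1 lower, against 11.1% and 11.3% of all genes, and the median was 0.046. The one that rose was Ncl, nucleolin, an abundant nucleolar protein of ribosomal RNA transcription and processing, at 305, 313 and 302 CPM in controls and 341, 365 and 358 CPM in Gls1_CamkIIaCre (0.21 ± 0.039, edgeR adjusted p = 0.00235). Its groups did not overlap, it was called in every alternative run, and it had 0.16 ± 0.040 (0.0199) after the length and GC correction. Of 34 subunits and factors of RNA polymerases I and III, 0 passed by edgeR, DESeq2 or limma voom, 3 were higher and 0 lower at an unadjusted edgeR p under 0.05, and the median was -1.5e-04.

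Among 42 genes of the mTOR pathway and of TOP mRNA control, 2 rose and 1 fell by edgeR, near the 3.95% and 4.29% of all genes, with a median of 0.043, and 0 passed by DESeq2. At an unadjusted edgeR p under 0.05, 8 were higher and 3 lower, against 11.1% and 11.3% of all genes. In 13 the Gls1_CamkIIaCre libraries lay above all controls and in 5 below, against 13.1% and 13.6% of all genes. Mycl, a Myc family transcription factor, rose from 11.8 ± 0.927 to 15.4 ± 0.993 CPM (SD, n = 3 each, log2 change 0.38 ± 0.098 (SE), edgeR adjusted p = 0.0206), and Ddit4, an inhibitor of mTORC1, from 28.4 ± 2.33 to 34.1 ± 0.682 CPM (0.26 ± 0.069, 0.0227). Akt1s1, an mTORC1 inhibitor that Akt phosphorylates, fell from 40.2 ± 2.05 to 34.8 ± 0.268 CPM (-0.21 ± 0.061, 0.0392). Mycl and Ddit4 kept their calls after the length and GC correction (0.0198 and 0.0118) and Akt1s1 did not, while the S6 kinase gene Rps6ka3 was called lower there (-0.14, 0.0424). Limma on the FPKM values gave no call for Mycl and Ddit4. All 3 lost the call without control 3, Gls1_CamkIIaCre 1 or Gls1_CamkIIaCre 2, Mycl and Akt1s1 also without control 2, and Akt1s1 also without Gls1_CamkIIaCre 3.

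Of 24 ribosome-associated and quality control genes 2 fell, against 4.29% of all genes, and 6 were lower and 2 higher at an unadjusted p under 0.05, against 11.3% and 11.1%. The called genes were Rack1 and Dnajc2, a chaperone at the exit tunnel, which went from 37.2 ± 2.92 to 32 ± 0.986 CPM (SD, n = 3 each, log2 change -0.22 ± 0.067 (SE), edgeR adjusted p = 0.0456). Dnajc2 lost its call by DESeq2 and limma voom, after the length correction and without any 1 library except control 3, and the list's median was 0.0015. The 77 genes of the mitochondrial ribosome, whose proteins are made on cytosolic ribosomes, had a median of -0.091 with 70 below 0, against 50.8% of all genes. Of them 0 passed by edgeR, DESeq2 or limma voom, and at an unadjusted edgeR p under 0.05 14 were lower and 0 higher, against 11.3% and 11.1% of all genes. After the length and GC correction their median was -0.029, close to the -0.027 of the cytosolic ribosomal protein genes.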

How the data were processed

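Members and gene lists were chosen with earlier results of these data known, so no list is independent evidence. Per the labels' protocols, RNA came from TRIzol extraction and libraries from the SMARTer mRNA-Seq kit. The submitters' processing notes name the build GRCm38 (mm10), with aligner, counting tool and use of strand not given in the sources used here. Deposited by the authors were whole-number counts per gene, used for all tests, and FPKM values of the same genes and libraries, used for levels per length and as an alternative.

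The test was that of edgeR 4.0.16 (R 4.3.3, TMM, filterByExpr, robust quasi-likelihood fit, no covariate) with Benjamini-Hochberg adjustment over 14440 genes and a threshold of 0.05. The common biological coefficient of variation was 4.75%. Positions came from the RefSeq table of GRCm38.p6, matched by identifier for 21727 rows. Transcript lengths came from GENCODE M21 and were found for 99.3% of tested genes. The transcript used was the longest marked as a principal isoform (APPRIS), else the longest of the basic set, else the longest of any kind. The correction used splines with 4 degrees of freedom per library. Paralog ratios were tested with exact permutation tests (scipy 1.17.1). Named genes were the 12 called genes of smallest p, the 5 of highest FPKM, paralogs beside their core gene, genes with a known special role, Rack1, and called genes of each list (up to 6). Alternatives were DESeq2 1.42.0, limma voom (limma 3.58.1), DESeq2 or upper-quartile scaling, other filters, limma on log2 FPKM values with pseudocounts of 1 and 0.1, the replicate number as block, leaving out each library, and, chosen after the data were seen, the length and GC corrections. Replicates are separate mice, no pair agreed within sampling noise, and the labels name no batch. The targeted gene and some genes that this rule picks are not reported here. The procedure was also tested on simulated data.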

Additional observations from a re-analysis of the deposited data

How the results depend on the processing

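Over all genes 1190 were called, against 674 by limma on log2(FPKM + 1) and 729 with a pseudocount of 0.1, and between 415 and 1098 when 1 library was left out. The number of ribosomal protein genes called lower was 26, with a range of 2 to 43 when 1 library was left out, 17 after GC correction, 0 after length correction and 0 after length and GC correction, and their median log2 fold change was then -0.029 and -0.027. It lay between -0.16 and -0.094 with 1 library left out. Of all genes tested, 4.29% were called lower in the main fit. The share was 3.52% after GC correction, 2.80% after length correction and 2.85% after length and GC correction. With the replicate number as a block, 43 ribosomal protein genes and 1758 genes in all were called. The numbers are not stated to pair mice, and same-numbered libraries had correlations of 0.14, -0.026 and 0.14 in their deviations from the group means. Without the 10 most abundant genes in the total, the mean share of counts in Gls1_CamkIIaCre was 1.12% (1.14%, 1.12% and 1.11%). The control libraries had 1.30%, 1.24% and 1.16% on that total. With all genes in the total and 1 library left out, the mean share ran from 1.08% to 1.10% in Gls1_CamkIIaCre and from 1.17% to 1.23% in controls. Of the ribosomal protein genes, 82 of 85 had a fold change below 0, and 61 after length and GC correction. Among those named with values by the rule, signs turned after length and GC correction and after length correction for Rpl37rt (0.069 and 0.066), Rps27l (0.0030 and 0.0080) and Rps6 (0.0080 and 0.0047), while Rpl4 and Rpl7a, named outside it, stood at 0.035 and 0.096 after length and GC correction, and for Rpl7l1 values lay between -8.7e-04 without control 3 and 0.048 without control 2. Since length is confounded with genotype here, the cause was not tested. Upper-quartile scaling moved the split of all calls to 429 higher and 749 lower, from 571 and 619, and limma on log2(FPKM + 1) to 116 and 558.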
